A study of Homo sapiens with 6 samples.

Results

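The LINC genes are long noncoding RNA genes that were given a LINC number because they lay between protein-coding genes and had no other name when they were catalogued. In the table of 35474 genes, 501 rows carried such a name. The group described here is the 86 of them with at least 30 counts in every one of the 6 libraries, and all 86 passed the filter on low counts and were tested. A rule on the lowest count leaves out a gene that is silent in 1 group, and 94 of the 415 other LINC genes were tested as well.

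Long intergenic noncoding RNAs are transcribed by RNA polymerase II, are often spliced and polyadenylated, and have no long reading frame. Some act where they are made, on the chromatin or the transcription of a neighboring gene, and others work in the nucleus or cytoplasm by binding proteins or other RNAs. Most are made in small amounts and in few cell types, and several have been followed in lung cancer for their effects on growth and invasion. A few names in the LINC series turned out to belong to genes for small proteins.

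BAP18 (gene C17orf49) is a subunit of chromatin-remodeling complexes that binds histone H3 trimethylated at lysine 4. The study asked which genes depend on it in A549 cells, a line from a human lung adenocarcinoma. Total RNA was extracted 48 h after transfection from 3 cultures that received siRNA against BAP18 (siBAP18) and from 3 that received a nontargeting siRNA (siCtrl), and the labels call the cultures of a group biological replicates. The groups had the same cell line, were collected at the same time and differ in the siRNA, and which of the study's 3 BAP18 siRNAs was used is not stated. Poly(A) RNA was sequenced from strand-specific libraries, so transcripts without a poly(A) tail are not covered.

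Values of a group are given in the order of replicates 1, 2 and 3. The targeted gene C17orf49 had 743, 751 and 705 counts in siCtrl and 120, 137 and 108 in siBAP18, a log2 fold change of −2.65 (SE 0.111, edgeR adjusted p = 7.31e-16). Adjusted p-values throughout are from the quasi-likelihood test of edgeR, corrected over all genes tested by the Benjamini-Hochberg method, and SE is the standard error of the log2 fold change. Libraries held 42094524 to 56548620 counts. The epithelial markers CDH1, EPCAM, KRT8 and KRT18 were present in every library, and all 4 were lower in siBAP18, with log2 fold changes of −1.32, −0.41, −0.37 and −0.24 (edgeR adjusted p at most 0.0102). CDKN2A, which is deleted in A549, had at most 7 counts. The leukocyte marker PTPRC was not among the rows, PECAM1 had 8 to 45 counts and DES 0 to 4, whereas the fibroblast gene COL1A1 had 349 to 611. PECAM1 and COL1A1 were lower in siBAP18 as well, by log2 fold changes of −1.53 and −0.38 (edgeR adjusted p = 0.00123 and 0.00124). The share of counts from mitochondrial genes was 7.43%, 7.08% and 6.86% in siCtrl and lower, at 5.74%, 5.27% and 6.14%, in siBAP18. The part of these markers and shares in the changes below was not tested.

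Promoter windows are shown for the 3 largest rises and the 3 largest falls among members that had a window and were named for a call, for high RPKM or for a place on a gene list. The 3 falls shown are therefore not the largest among all members. LINC01305, LINC00887, LINC00482, LINC00630 and LINC00894 have a window and fell by more than each of them, but lie outside these criteria. The windows are RefSeq sequences from GRCh38.p14, running from 250 bases before to 50 bases after the RefSeq start and written 5′ to 3′ on the strand of the gene. LINC01578 (chr15:92882593-92882892, + strand), LINC00152 (chr2:87455177-87455476, + strand) and LINC00857 (chr10:80207460-80207759, + strand) rose after BAP18 knockdown. LINC00261 (chr20:22578593-22578892, − strand), LINC01021 (chr5:27472042-27472341, + strand) and LINC00493 (chr20:18567182-18567481, + strand) fell. Capitals mark the AP-1 motif TGANTCA, the E-box CACGTG, the CCAAT box CCAAT and the TATA box TATAAA, each on either strand.
LINC01578: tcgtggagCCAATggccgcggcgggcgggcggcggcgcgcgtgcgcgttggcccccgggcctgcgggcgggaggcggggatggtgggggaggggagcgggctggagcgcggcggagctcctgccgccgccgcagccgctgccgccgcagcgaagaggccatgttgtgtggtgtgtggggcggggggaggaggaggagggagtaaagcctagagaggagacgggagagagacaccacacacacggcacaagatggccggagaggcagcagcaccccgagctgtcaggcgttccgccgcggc
LINC00152: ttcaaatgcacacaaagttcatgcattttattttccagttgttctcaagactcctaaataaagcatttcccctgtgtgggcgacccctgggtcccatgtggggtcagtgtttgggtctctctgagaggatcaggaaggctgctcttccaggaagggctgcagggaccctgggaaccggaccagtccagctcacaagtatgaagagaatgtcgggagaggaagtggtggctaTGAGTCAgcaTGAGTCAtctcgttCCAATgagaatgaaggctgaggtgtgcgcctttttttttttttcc
LINC00857: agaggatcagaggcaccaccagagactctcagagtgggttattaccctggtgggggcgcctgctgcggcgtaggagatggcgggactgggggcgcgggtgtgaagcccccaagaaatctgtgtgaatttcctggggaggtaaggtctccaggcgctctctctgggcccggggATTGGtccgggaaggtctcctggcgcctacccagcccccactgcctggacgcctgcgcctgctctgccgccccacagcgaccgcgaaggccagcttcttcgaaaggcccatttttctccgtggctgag
LINC00261: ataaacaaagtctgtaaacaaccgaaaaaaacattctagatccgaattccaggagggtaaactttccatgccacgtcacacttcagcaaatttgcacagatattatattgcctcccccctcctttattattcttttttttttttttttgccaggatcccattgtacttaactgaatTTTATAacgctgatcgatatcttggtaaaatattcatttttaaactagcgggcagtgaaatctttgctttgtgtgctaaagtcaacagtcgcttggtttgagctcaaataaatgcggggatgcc
LINC01021: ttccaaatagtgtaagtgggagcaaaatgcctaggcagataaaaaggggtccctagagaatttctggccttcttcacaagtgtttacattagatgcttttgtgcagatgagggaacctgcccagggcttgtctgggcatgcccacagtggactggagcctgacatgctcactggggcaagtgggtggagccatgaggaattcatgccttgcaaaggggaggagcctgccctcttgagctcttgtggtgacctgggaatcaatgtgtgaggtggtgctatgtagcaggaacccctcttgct
LINC00493: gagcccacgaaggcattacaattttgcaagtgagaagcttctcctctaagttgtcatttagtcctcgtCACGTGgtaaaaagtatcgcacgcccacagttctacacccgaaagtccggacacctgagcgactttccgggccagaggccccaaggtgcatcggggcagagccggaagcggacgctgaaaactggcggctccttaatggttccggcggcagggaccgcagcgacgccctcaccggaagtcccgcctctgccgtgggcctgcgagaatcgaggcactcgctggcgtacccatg

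In these windows the AP-1 motif occurred 2 times in LINC00152, and the CCAAT box occurred once in each of the 3 genes that rose. The LINC00261 window held a TATA box and the LINC00493 window an E-box, and LINC01021 held none of the motifs searched. All 86 members were found in RefSeq by symbol or synonym, and for 25 the symbol had changed. A promoter window existed for 71, and the 61 whose RefSeq start lay at most 1000 bases from the start in the table were searched. AP-1 motifs were present in 8.2% of these 61 windows and in 7.71% of all 35116 promoter windows. E-boxes were present in 8.2% and 7.26%, the EGR motif GCGNGGGCG in 9.84% and 9.43%, and CCAAT boxes in 36.1% and 34.6%. The TATA box was present in 16.4% of the member windows and 11.5% of all windows. It was found in 0 of 17 windows of members that were higher after BAP18 knockdown and in 3 of 12 windows of members that were lower. Of the same 17 and 12 windows, AP-1 motifs were in 2 and 0, E-boxes in 1 and 1, and EGR motifs in 3 and 1. CCAAT boxes were in 8 and 3. The remaining member windows with a motif belonged to members that did not pass, and no split was tested. A match is a description of the sequence and not evidence of a bound factor.

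Knockdown of BAP18 moved the 86 LINC genes in both directions, and their changes beyond 1 on the log2 scale were rises. LINC01004, LINC01578, LINC00152, LINC00843, LINC00857 and LINC01588 rose by more than 1 on the log2 scale, while no member fell by as much. The threshold for a call was an adjusted p below 0.05 with a log2 fold change beyond 1 in either direction, and by this rule 6 of 86 members (6.98%) were higher and 0 were lower. DESeq2's Wald test also called 6 higher and 0 lower. The lowest log2 fold change of a member in the edgeR fit was −0.95, so no p threshold could give a called fall there. Without any 1 of the siCtrl libraries, or without replicate 2 of siBAP18, 1 member was called lower, LINC00887 without siCtrl replicate 1 or 2 and LINC01305 in the other two fits. Of all 16119 genes with at least 30 counts in every library, 2.32% were called higher and 3.01% lower. Over all 20776 genes tested, 4.72% were called higher and 3.74% lower. The lack of called falls holds only within the rule on counts. Of the 94 tested LINC genes outside it, 16 were called higher and 8 lower. Of all 4657 genes tested with a lowest count under 30, 13% were called higher and 6.27% lower. Whether the split of the members differs from that of other genes was not tested.

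At the adjusted p alone, 26 members (30.2%) were higher, 17 (19.8%) were lower and 43 did not pass. Among all genes with at least 30 counts in every library, 27.1% were higher and 29.5% lower by the same rule. The members' median log2 fold change was 0.07, with quartiles of −0.22 and 0.46 and a range from −0.95 to 1.69, beside a median of −0.01 over all genes with at least 30 counts. The members' median ranged from 0.0343 (without siBAP18 replicate 3) to 0.0946 (without siBAP18 replicate 2) as libraries were left out. The CPM ranges of both groups were separate in 53 members (61.6%), 31 of them higher and 22 lower, where 62.9% of all genes with at least 30 counts were without overlap. Of the 43 members that passed, 18 changed by less than 0.5 on the log2 scale, which leaves 17 that rose and 8 that fell by more. Several of these rises and 1 of these falls did not pass in every fit that left out a library, as given below. All values are amounts in bulk RNA, in which fewer cells making an RNA and less RNA per cell cannot be told apart.

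**Figure D1:**
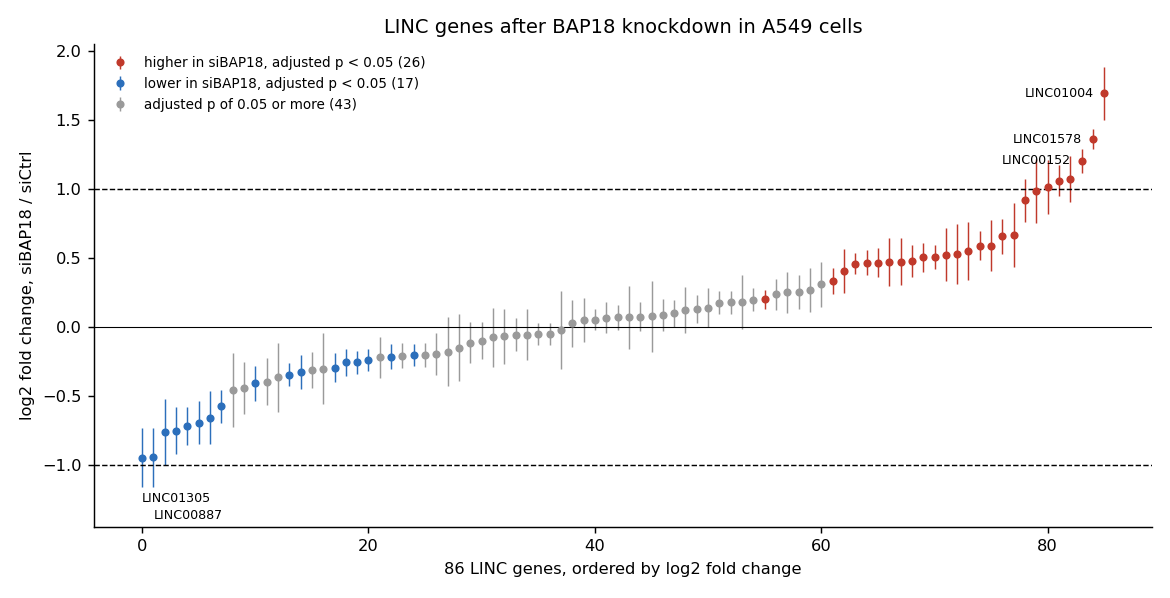
Log2 fold change (siBAP18 over siCtrl, y axis) of the 86 LINC genes in order of their value (x axis), with standard errors as bars. Red points (26) were higher and blue points (17) lower at an adjusted p below 0.05, gray points (43) did not pass, and dashed lines mark a log2 fold change of 1 and −1, which 6 members exceeded upward and 0 downward.

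LINC01004 showed the largest rise. It occupies bases 104950315 to 105013044 of chromosome 7 (− strand), where GENCODE 29 lists it as an antisense RNA. Counts were 54, 38 and 40 in siCtrl and 185, 162 and 103 in siBAP18. Expression was 0.896 ± 0.105 CPM (SD, n = 3) in siCtrl and 2.90 ± 0.444 CPM (SD, n = 3) in siBAP18, and every siBAP18 library was above every siCtrl library. The log2 fold change was 1.69 (SE 0.192, edgeR adjusted p = 5.91e-08). Its start lies 1135 bases from that of KMT2E, a reader of methylated histone H3, which is transcribed the other way. KMT2E had a log2 fold change of −0.22 (edgeR adjusted p = 0.00753), in the opposite direction.

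LINC01578, now named CHASERR, had the highest RPKM of the 6 members called. CHASERR is known to restrain CHD2, the chromatin remodeler encoded just downstream of it on the same strand. The gene spans 92882707 to 92899701 on chromosome 15 and ends 488 bases before CHD2. Counts were 1238, 1181 and 1064 in siCtrl and 3519, 3412 and 2441 in siBAP18. In CPM the siCtrl libraries lay from 22.8 to 25.4 and the siBAP18 libraries from 58.4 to 64.7, so the groups were well separated relative to an SD of 1.39 and 3.22. The log2 fold change was 1.36 (SE 0.0728, edgeR adjusted p = 9.08e-14), a 2.57-fold rise. CHD2 rose as well, by 0.57 (SE 0.0764, edgeR adjusted p = 9.08e-07). None of the 31-base words of LINC01578 occurred in another GENCODE 29 transcript outside its locus, whereas 225 of its 5395 exon bases were shared with the row of a clone-named gene on the same strand.

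LINC00152, now named CYTOR, is a cytoplasmic RNA that is raised in many carcinomas and is on the lung cancer list used below. The gene occupies bases 87455368 to 87606805 of chromosome 2 (+ strand). Counts rose from 379, 328 and 317 in siCtrl to 868, 899 and 689 in siBAP18, with 6.99 ± 0.181 and 16.1 ± 0.814 CPM (SD, n = 3). The log2 fold change was 1.20 (SE 0.0887, edgeR adjusted p = 3.26e-11). CYTOR has a near copy, MIR4435-2HG, elsewhere on the chromosome. In GENCODE 29, 29% of the 31-base words of LINC00152 transcripts recurred outside its locus and 18.7% recurred in MIR4435-2HG, which had a log2 fold change of 0.78 (edgeR adjusted p = 3.28e-08). How the authors assigned reads that match both genes is not given in the sources used here, so the value of LINC00152 is uncertain to that extent.

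LINC00857 is on the lung cancer list as well and is known for supporting the growth of lung and bladder cancer cells. Counts were 194, 197 and 181 in siCtrl and 450, 489 and 315 in siBAP18. Its log2 fold change was 1.06 (SE 0.111, edgeR adjusted p = 1.72e-08), and the siBAP18 libraries lay from 7.77 to 8.37 CPM against 3.65 to 4.24 CPM in siCtrl. Only 1.53% of its 31-base words recurred elsewhere. The nearest coding gene, ANXA11, lies 2138 bases away on the other strand and had a log2 fold change of −0.09 (edgeR adjusted p = 0.36), which did not pass.

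LINC00843 and LINC01588 completed the 6 members called higher. LINC00843 had 102, 71 and 76 counts in siCtrl and 222, 214 and 117 in siBAP18, with a log2 fold change of 1.07 (SE 0.168, edgeR adjusted p = 8.06e-06). It lies within TIMM23B, a gene for a protein of mitochondrial import, on the same strand. In RefSeq the name LINC00843 is now listed under TIMM23B-AGAP6. The exons of both genes share 131 of its 711 exon bases, and TIMM23B had a log2 fold change of 0.95 (edgeR adjusted p = 5.83e-10). Repeated sequence is extensive here, since 72.8% of the 31-base words of LINC00843 recurred outside its locus and 59.6% in the pseudogene PARGP1, whose log2 fold change was −0.34 (edgeR adjusted p = 0.0189). The counts of LINC00843 are uncertain for these reasons, and LINC00843 and TIMM23B may not be separate measurements. LINC01588 had 47, 64 and 62 counts in siCtrl and 125, 148 and 96 in siBAP18, a log2 fold change of 1.01 (SE 0.195, edgeR adjusted p = 0.000108) that lies at the threshold.

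**Figure D2:**
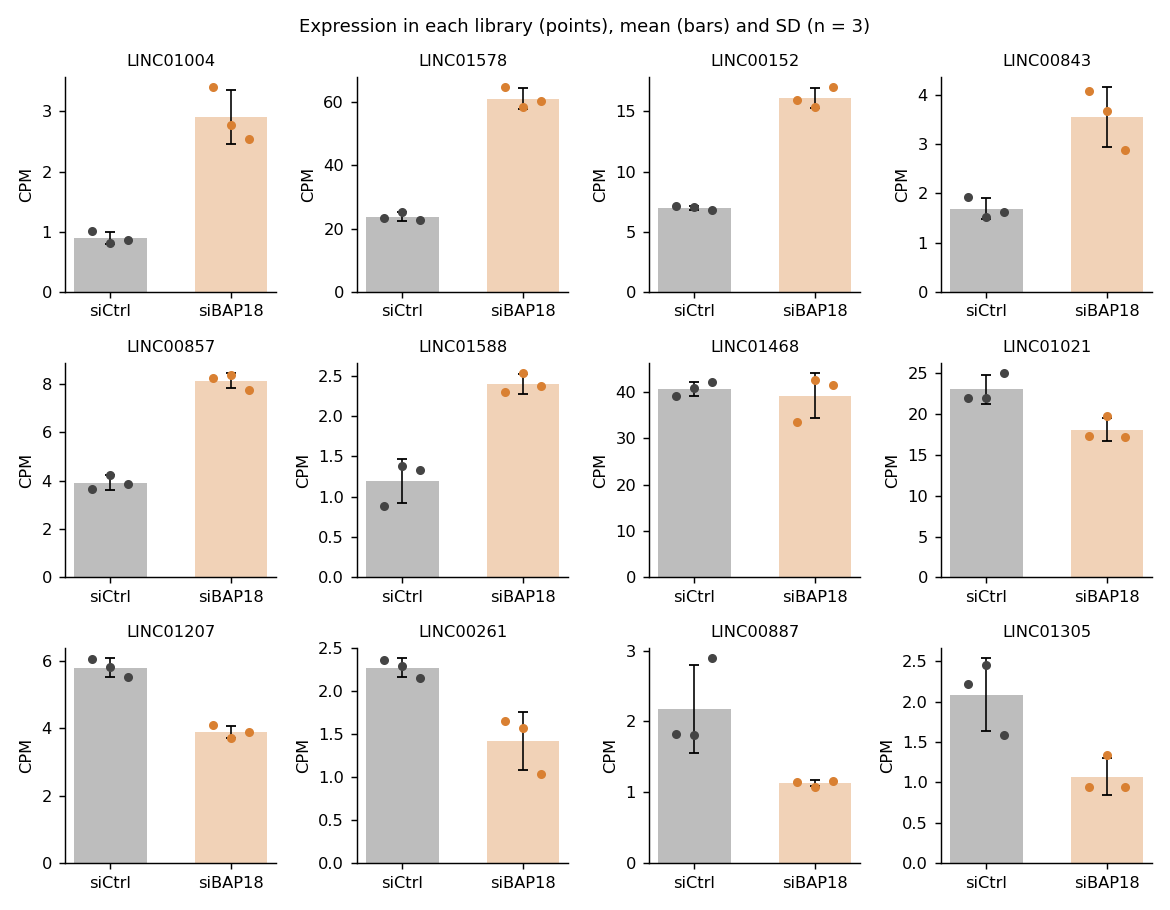
Expression in CPM (y axis, from 0) of 12 LINC genes in the 3 siCtrl and 3 siBAP18 libraries (x axis), with points for libraries, bars for means and lines for the SD. The first 6 panels are the members called higher, whose siBAP18 points all lie above the siCtrl points. LINC01468 overlaps between the groups, and LINC01021, LINC01207, LINC00261, LINC00887 and LINC01305 lie lower in siBAP18 without overlap.

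A further 11 members rose by 0.5 to 1. Of these, LINC00471, LINC00526, LINC01569, LINC00174 and LINC01186 passed in 3, 4, 2, 2 and 2 of the 6 fits that left out a library. LINC00526 (0.59) and LINC00667 (0.50) overlap on opposite strands and share 773 of the 1875 exon bases of LINC00526. Their rises may therefore not be separate measurements. LINC00115 (0.98, adjusted p = 0.00102) and LINC00909 (0.92, adjusted p = 3.17e-05, both from edgeR's test) came closest to the fold threshold and, like the other members of this paragraph and the next, were chosen after their values were seen. LINC00909 had 127, 126 and 122 counts in siCtrl and 288, 329 and 140 in siBAP18. Replicate 3 of siBAP18 was the low value of its group, 3.45 CPM beside 5.29 and 5.63, and stayed above all siCtrl libraries, which had at most 2.71 CPM. Of the 31-base words of LINC00115, 56.7% recurred in other transcripts, 33% in ZNF596. ZNF596 had a log2 fold change of 0.61 (edgeR adjusted p = 0.00923), so the value of LINC00115 is uncertain to that extent.

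No fall of a member passed the fold threshold, and 8 members fell by 0.5 to 1. LINC01305 had 118, 114 and 74 counts in siCtrl and 51, 78 and 38 in siBAP18, a log2 fold change of −0.95 (SE 0.216, edgeR adjusted p = 0.000699). Its lowest siCtrl library was at 1.58 CPM and its highest siBAP18 library at 1.34 CPM, so the groups came close. LINC00887 had 97, 84 and 135 counts in siCtrl and 62, 63 and 47 in siBAP18, with the same rounded log2 fold change of −0.95 (SE 0.212, edgeR adjusted p = 0.000571). LINC00482 (−0.76), LINC00630 (−0.75), LINC00893 (−0.72) and LINC00894 (−0.70) followed, with adjusted p-values from 8.77e-05 to 0.00937 in edgeR's test. LINC00482 did not pass without siCtrl replicate 2 (edgeR adjusted p = 0.105). LINC00893 and LINC00894 lie on the X chromosome and share sequence, with 35.2% of the words of LINC00893 present in LINC00894, so their falls may not be separate measurements. LINC01207, now SMIM31, had 322, 271 and 258 counts in siCtrl and 222, 217 and 157 in siBAP18, a log2 fold change of −0.58 (SE 0.118, edgeR adjusted p = 0.000212).

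The abundance of the members was low for expressed genes. Mean RPKM over the 6 libraries ranged from 0.0905 to 33.9 with a median of 1.15, beside a median of 3.38 over all genes with at least 30 counts in every library. Of the 86 members, 39 were under 1 RPKM and 10 were over 5 RPKM. Together they took 0.0626% to 0.0653% of the counts in the siCtrl libraries and 0.0687% to 0.0743% in the siBAP18 libraries. Member counts were 33577, 30059 and 30012 in siCtrl and 38261, 42029 and 28898 in siBAP18. LINC01578 alone gave 1238, 1181 and 1064 of them in siCtrl and 3519, 3412 and 2441 in siBAP18. The higher share thus rests in part on this 1 gene. The 8 members with the highest RPKM gave 33.8% of the member counts. By tertile of RPKM, 5 of 29 members were higher and 7 lower in the low tertile, 12 of 28 were higher and 4 lower in the middle tertile, and 9 of 29 were higher and 6 lower in the high tertile. Of all genes with at least 30 counts in the same RPKM ranges, 15.8% were higher and 25.7% lower in the low range, 20.6% and 32.6% in the middle range and 32.1% and 30.4% in the high range. The difference between members and other genes was not tested.

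LINC01468, now LNCAROD and known as an activator of DKK1, an inhibitor of Wnt signaling, was the most abundant by length. Its counts were 2082, 1897 and 1971 in siCtrl and 1826, 2486 and 1681 in siBAP18, and the groups overlapped at 33.9 RPKM on average. The log2 fold change was −0.05 (SE 0.0804, edgeR adjusted p = 0.604). DKK1, its nearest coding gene at 132832 bases, had a log2 fold change of 0.17 (edgeR adjusted p = 0.034). LINC00602 (9.50 RPKM) and LINC00473 (8.17 RPKM) overlap on opposite strands and share 498 exon bases. LINC00473 starts 30 bases from the start of PDE10A and lies within it on the same strand, and LINC00602 spans that start on the other strand. LINC00473 is an RNA induced through CREB and known from lung cancers lacking the kinase LKB1. Its log2 fold change was −0.05 (edgeR adjusted p = 0.614) and that of LINC00602 was −0.26 (SE 0.0832, edgeR adjusted p = 0.0123). Use of strand in counting is not given in the sources used here, and without it the reads in the shared stretch cannot be told apart.

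Among the other abundant members, LINC01021 fell most. LINC01021, now PURPL, is induced by p53 and limits p53 in turn. Its counts were 1170, 1023 and 1170 in siCtrl and 939, 1151 and 699 in siBAP18, and the scaled levels of 17.2 to 19.7 CPM in siBAP18 lay under those in siCtrl, which were at least 22.0 CPM. The log2 fold change was −0.35 (SE 0.0814, edgeR adjusted p = 0.000936). The log2 fold change of LINC00342 (9.30 RPKM) was −0.21 (edgeR adjusted p = 0.0322) and that of LINC01234 (8.54 RPKM) was 0.20 (edgeR adjusted p = 0.0223). Each of these passed in only 3 of the 6 fits that left out a library.

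Of 8 listed LINC names that have become genes for small proteins, 5 were members, of which 1 rose, 1 fell and 3 did not pass. These few stand beside 27.1% higher and 29.5% lower of all genes with at least 30 counts, without a test. LINC00116, now MTLN, encodes mitoregulin, a peptide of the inner mitochondrial membrane that favors fatty acid oxidation. Its counts were 212, 168 and 144 in siCtrl and 326, 302 and 232 in siBAP18, a log2 fold change of 0.66 (SE 0.128, edgeR adjusted p = 0.000131). LINC00493, now SMIM26, encodes a mitochondrial protein as well and had a log2 fold change of −0.26 (SE 0.099, edgeR adjusted p = 0.0325), with 7.80 to 8.21 CPM in siCtrl and 6.56 to 6.92 CPM in siBAP18. It passed in only 2 of the 6 fits that left out a library. LINC01420 (now NBDY, a peptide that binds the mRNA decapping complex) had 0.24, LINC00094 (now BRD3OS) 0.10 and LINC00998 (now SMIM30) −0.10, and none of the 3 passed. In GENCODE 29 a coding gene starts at the same base as 6 members, which are these 5 and LINC01207, so the name LINC does not hold for them as noncoding genes. LINC01207, now SMIM31, was not on the list and is not in the tally above. It fell, with a log2 fold change of −0.58 (edgeR adjusted p = 0.000212), and passed in all 6 fits that left out a library. Other LINC names have changed as well, and in RefSeq the name LINC00950 is listed under the coding gene TMEM8B.

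Of 30 LINC genes listed for reported roles in lung cancer, 24 were in the table and 15 were members. At the adjusted p alone, 6 were higher, 3 were lower and 6 did not pass, and LINC00152 and LINC00857 were called. Over all genes with at least 30 counts, 27.1% were higher, 29.5% lower and 2.32% called higher, and the difference was not tested. The list's median log2 fold change was 0.18, beside 0.07 over the members and −0.01 over all genes with at least 30 counts. This list and that of small-protein genes were chosen with earlier results of these data known. Their tallies are therefore no independent comparison. LINC00511, an RNA linked to growth in several carcinomas, had 473, 449 and 456 counts in siCtrl and 717, 769 and 561 in siBAP18, a log2 fold change of 0.51 (SE 0.0872, edgeR adjusted p = 2.89e-05). LINC00963 rose by 0.46 (SE 0.0748, edgeR adjusted p = 1.38e-05), LINC00941 by 0.47 (SE 0.172, edgeR adjusted p = 0.0261) and LINC01234 by the 0.20 given above.

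The 3 members of the lung cancer list that fell were LINC00261, LINC01296 and LINC00342. LINC00261 lies 2363 bases downstream of FOXA2, the endoderm transcription factor whose expression it is known to accompany, at bases 22547671 to 22578642 of chromosome 20 (− strand). Its counts were 126, 107 and 101 in siCtrl and 90, 92 and 42 in siBAP18, a log2 fold change of −0.66 (SE 0.19, edgeR adjusted p = 0.00543). FOXA2 itself had a log2 fold change of 0.17 (edgeR adjusted p = 0.0576), which did not pass. LINC01296 had −0.41 (SE 0.127, edgeR adjusted p = 0.00898). The 6 that did not pass were LINC00707 (0.27), LINC00467 (0.18), LINC00662 (0.07), LINC00313 (0.02), LINC00473 (−0.05) and LINC00205 (−0.20).

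The word intergenic describes most but not all members. In GENCODE 29, 71 members had the same name, of which 48 were of the type lincRNA, 6 antisense and 17 another type. By position, 22 members overlapped a coding gene, 12 on the other strand and 10 on the same strand. Exon bases were shared with another row on the same strand in 14 members and on the other strand in 36, while 41 shared none. Members without overlap lay a median of 22370 bases from the nearest coding gene. Of the 83 members with transcripts in GENCODE 29, 7 had over 50% of their 31-base words elsewhere and 47 had under 5%. LINC01106 and LINC01123 are such a pair, with 92.6% and 95.2% of their words elsewhere and similar log2 fold changes of −0.22 and −0.20, so that they may not be separate measurements. This pair was chosen after its values were seen.

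Some long noncoding RNAs act on a neighboring gene, and each member was therefore set beside its nearest coding gene. Across the 77 members whose nearest coding gene was tested, the log2 fold changes of member and neighbor had a Pearson r of 0.0983 and a Spearman rho of 0.0445, given as a description because genes are not independent replicates, 72 neighbors serve the 77 members and all values come from the same 6 libraries. For the 43 members overlapping or within 10 kb of that gene, r was 0.0787. Of 27 members within 50 kb that neither overlapped, diverged nor followed closely downstream, 12 were higher and 4 lower at the adjusted p alone, and 3 were called. Of 24 members farther away, 6 were higher and 5 lower. Among 12 members overlapping a gene on the other strand 3 were higher and 3 lower, and among 10 overlapping on the same strand 2 were higher and 1 lower. The 5 divergent members had 1 higher and 1 lower, and the 8 downstream members had 2 higher and 3 lower. These counts stand beside the 27.1% higher and 29.5% lower of all genes with at least 30 counts, of which 2.32% were called higher. No position was tested against another.

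**Figure D3:**
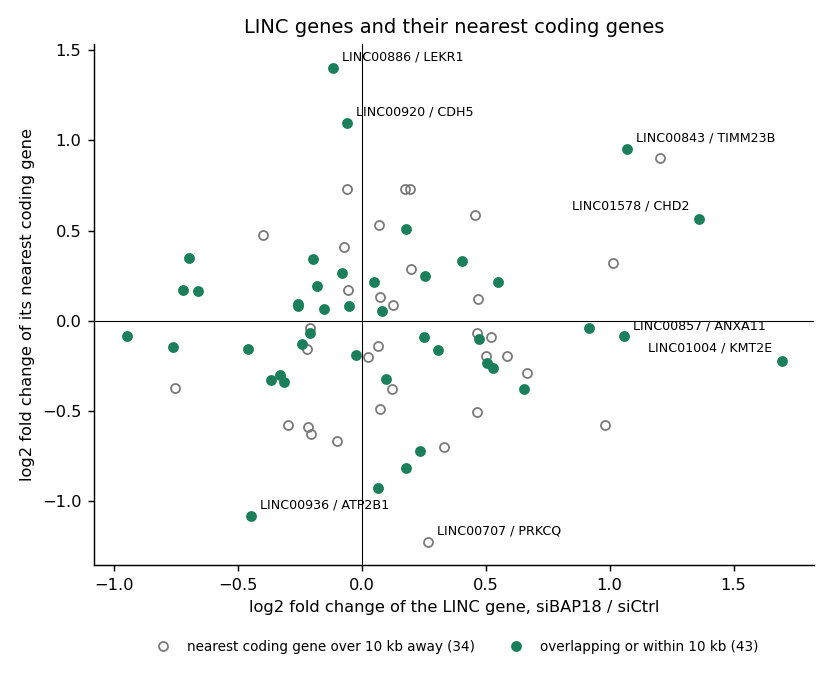
Log2 fold change (siBAP18 over siCtrl) of LINC genes (x axis) and of their nearest coding genes (y axis), for 77 pairs. Filled points (43) overlap or lie within 10 kb of the coding gene and open points (34) lie farther away. LINC01578 with CHD2 and LINC00843 with TIMM23B are high on both axes, whereas LINC01004 with KMT2E is not.

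Other noncoding classes with at least 30 counts in every library are given for comparison, without a test. Of all genes with at least 30 counts, 2.32% were called higher and 3.01% lower, with 27.1% higher and 29.5% lower at the adjusted p alone. Of 364 antisense genes, 19 (5.22%) were called higher and 4 lower, with 78 (21.4%) higher and 72 (19.8%) lower at the adjusted p alone. None of 19 small nucleolar RNA host genes was called, with 9 higher and 2 lower at the adjusted p alone. Among 15 microRNA host genes 0 were called higher and 1 lower. The median log2 fold changes were 0.02, 0.20 and 0.03 in this order.

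The rule on counts has a sharp edge. Just inside it were LINC01057, with 52, 47 and 57 counts in siCtrl and 30, 43 and 44 in siBAP18 (log2 fold change −0.46), and LINC01232, with a lowest count of 31 (−0.03). Just outside were LINC00319 (lowest count 29, −0.04) and 4 genes with a lowest count of 28, LINC00476 (0.41), LINC00933 (0.45), LINC00997 (−0.59) and LINC01508 (1.22). Of these, LINC01508 had 38, 32 and 28 counts in siCtrl and 84, 87 and 67 in siBAP18 (edgeR adjusted p = 8.85e-05), a called rise. Among the 94 tested LINC genes outside the rule, 16 were called higher and 8 lower, beside 13% and 6.27% of all 4657 genes tested with a lowest count under 30. The filter keeps a gene that is expressed in only 1 group. Of the 16, 3 had 0 counts in all siCtrl libraries, LINC01366 among them, and were tested only through their siBAP18 counts. Calls of such genes are thus partly set by the filter. LINC00973 had 36, 22 and 33 counts in siCtrl and 158, 185 and 97 in siBAP18 (log2 fold change 2.19, edgeR adjusted p = 4.11e-09). LINC01366 had 0 counts in each siCtrl library and 58, 46 and 44 in siBAP18, at least 15.9-fold higher when each siCtrl library is set to the 3 counts that 0 allows. LINC01133, on the lung cancer list, fell from 44, 36 and 35 counts to 6, 16 and 10 (log2 fold change −1.90, edgeR adjusted p = 0.000137). LINC00973, LINC01366 and LINC01133 were chosen after their values were seen.

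**Figure D4:**
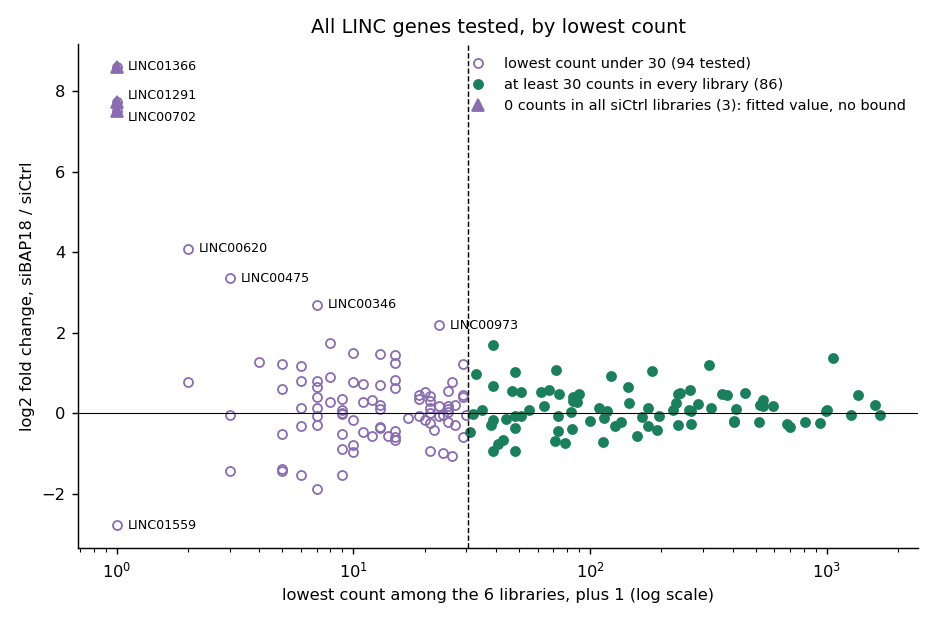
Log2 fold change (siBAP18 over siCtrl, y axis) of all tested LINC genes against the lowest count among the 6 libraries plus 1 (x axis, log scale). Filled points are the 86 members, open points the 94 with a lowest count under 30, triangles the 3 with 0 counts in all siCtrl libraries, whose fitted values are no bound. The dashed line marks the rule, and values above 2 lie to its left.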

How the data were processed

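RNA sequencing covered 3 siCtrl and 3 siBAP18 cultures of A549 cells. The authors deposited raw counts per gene and the same values as RPKM, which equal counts per kilobase of listed exon length scaled to the library's total count. The submitters' notes name hg38 and GRCm38, and the aligner, counting program and use of strand are not given in the sources used here. The members and gene lists were chosen with earlier results of these data known. Genes that filterByExpr kept were TMM-scaled and tested with edgeR 4.0.16 (quasi-likelihood test, Benjamini-Hochberg over all 20776 genes tested) in R 4.3.3. DESeq2 1.42.0 and limma 3.58.1 served as alternatives, and the steps were tested on simulated data. CPM values are relative to TMM-scaled totals, the standard error is the log2 fold change over the square root of F, and p-values measure the spread between labeled biological replicates. A count of 0 allows up to 3 counts, for counting error only. Named genes were C17orf49, up to 10 called rises and falls without overlap, the 8 members with the highest RPKM, members on the small-protein and lung cancer lists, the 2 members nearest each side of the count minimum, and their nearest coding genes, and all others are marked as chosen after their values were seen. Coordinates are those of the table on hg38. Types, coding neighbors (those with a row in the table) and shared 31-base words came from GENCODE 29, with Python 3.11.15. Replicates of a group differed by more than sampling noise (chi-square over degrees of freedom 3.94 to 4.56 for pairs of siCtrl and 10.1, 11.9 and 23.3 for pairs of siBAP18, so that the siBAP18 libraries stood farther apart). Residuals of libraries with the same number had Pearson r values of 0.0252, 0.12 and 0.048 across genes. For libraries with different numbers r ranged from −0.0854 to 0.0398. These values do not settle whether the numbers pair the cultures, and the main fit used no pairing.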

Additional observations from a re-analysis of the deposited data

How the results depend on the processing

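The counts of members and C17orf49 were recomputed under 16 other settings, and the counts and the median also under 3 other member rules. C17orf49 kept its direction and passed in all 16. Scaling by DESeq2 size factors, upper quartile or total counts, the DESeq2 Wald test, the other count filters and the replicate block kept each count within 1.5 times its value. With the replicate block, 26 members were higher and 22 lower at the adjusted p alone and 6 were called higher, and the numbers are not known to pair the cultures. The limma fits with a filter (mean of at least 0.5 RPKM) held 69 of the 86 members. Limma on log2(RPKM + 1), which shrinks changes of low genes, called 1 member higher with or without a filter, and at the adjusted p alone 7 members were lower with the filter and 6 without. Limma on log2(RPKM + 0.1) gave 7 lower members and a median of 0.12, whereas limma on log2(RPKM + 1) without a filter gave a median of 0.0315. With members of at least 10 counts in every library, 11 were called higher and 1 lower. A mean of at least 30 counts also gave 11 and 1. At least 100 counts in every library left 50 members, of which 3 were called higher, and 14 were higher and 11 lower at the adjusted p alone.

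With each library left out in turn, 0 to 1 members were called lower (LINC00887 without siCtrl replicate 1 or 2, LINC01305 without siCtrl replicate 3 or siBAP18 replicate 2), and 10 to 21 were lower at the adjusted p alone. The lowest of these, 10 and 11, came without siCtrl replicate 2 and without siCtrl replicate 3. Of the 43 members that passed, 24 passed in all 6 of these fits, 16 higher and 8 lower. LINC01578 was called in all 16 settings. LINC01004, LINC00152 and LINC00857 were called in 14, and fell under the fold threshold with limma on log2(RPKM + 1). LINC00843 was called in 13 of 16 and LINC01588 in 10 of 14, and as libraries were left out LINC01588 ranged from 0.82 (without siCtrl replicate 1 and 0.97 without siBAP18 replicate 2) to 1.12 and LINC00843 from 0.96 (without siBAP18 replicate 1) to 1.19. Among named members with small changes, the edgeR adjusted p rose to 0.106 (without siCtrl replicate 2) and 0.0670 (without siBAP18 replicate 1) for LINC00602, and to 0.149 (without siCtrl replicate 1) and 0.169 (without siBAP18 replicate 1) for LINC00941. It rose to 0.107 without siCtrl replicate 3 for LINC01296, to 0.0556 to 0.123 without any 1 siCtrl library for LINC01234, to 0.0759, 0.142 and 0.116 without siCtrl replicates 2 and 3 and siBAP18 replicate 3 for LINC00342, and to 0.0544 to 0.0924 without any 1 siCtrl library or siBAP18 replicate 1 for LINC00493. Members near 0 changed sign. LINC01468 ranged from −0.121 to 0.0472, LINC00473 from −0.102 to 0.0281, LINC00313 from −0.0440 to 0.150 (−0.0323 without siCtrl replicate 3 and −0.0093 without siBAP18 replicate 2) and LINC01232 from −0.296 to 0.319 (0.0380 without siCtrl replicate 3). The causes were not tested. Depth limits the members with few counts, whose SE reached 0.281 in LINC01232.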
